A study of Caenorhabditis elegans with 14 samples.

Results

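The MATH and BATH genes of Caenorhabditis elegans were followed across 4 genotypes of early embryos. They were taken as every row of the count table whose WormBase symbol is math or bath followed by a number. This gave 73 of 20392 genes, 37 of them named math and 36 named bath, and all 73 are protein coding. The 37 math genes encode proteins with a MATH domain, a fold that recognises other proteins. The 36 bath genes encode proteins that join a BTB domain to a MATH domain.

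The tested genotypes were an hpl-2 mutant (n = 4), hpl-2-FFAA (n = 4) and met-2 hpl-2 (n = 3), and the wild type was N2 Bristol (n = 3). The hpl-2 mutant carries the tm1489 allele of hpl-2. hpl-2-FFAA is a strain with the allele px112, also of hpl-2. The double mutant, met-2 hpl-2, combines tm1489 with the met-2 allele n4256 and is kept over hT2, a balancer, which is a chromosome rearrangement that lets mutations be carried in heterozygous animals. Embryos of all 4 genotypes came from synchronised cultures at 20 °C, and RNA was sequenced after removal of ribosomal RNA. The labels' extract protocol also speaks of an exposure to stated temperatures, and no source used here says which group was handled in which way. The labels name the cells as yeast, whereas the genes counted are those of C. elegans.

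MATH-BTB proteins act as substrate adaptors of CUL-3 ubiquitin ligases. The BTB domain binds the cullin CUL-3, and the MATH domain binds the protein to be marked with ubiquitin. MEL-26, the best-studied worm adaptor of this kind, directs the destruction of the katanin subunit MEI-1 when meiosis gives way to mitosis in the one-cell embryo. The math and bath genes expanded in nematodes into large gene clusters, as did the F-box genes, which encode adaptors of other cullin ligases. Functions of most single members are not known. HPL-2 belongs to the HP1 proteins, which bind histone H3 methylated at lysine 9, and MET-2 is a methyltransferase that places that mark.

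Library totals were 5497160 to 6390870 counts for the hpl-2 mutant, 5332725 to 6059674 for hpl-2-FFAA, 14313366 to 14840992 for met-2 hpl-2 and 5846490 to 6032200 for wild type. With the deeper met-2 hpl-2 libraries thinned at random to the mean total of the others, 19 of 35 tested members were called against wild type (16 higher and 3 lower) and 24 against the hpl-2 mutant (19 higher and 5 lower), where 54.3% and 66.9% of all genes were called. The hpl-2 transcript averaged 4.404 CPM (CPM being counts scaled to a common library size by TMM) in the hpl-2 mutant, 65.2 CPM in hpl-2-FFAA and 10.01 CPM in met-2 hpl-2, against 95.7 CPM in wild type. The met-2 transcript averaged 264.8, 282.1 and 29.4 CPM in the same mutants, against 287.1 CPM in wild type. Summed over 30 major sperm protein genes, markers of sperm, no library exceeded 2.229 CPM, and over 6 vitellogenin genes, markers of adult intestine, none exceeded 4.902 CPM. Of the 30 sperm genes, 14 to 24 per genotype were at 0 in all libraries. The maternal gene list (25 genes) summed to 11080 to 15770 CPM over all libraries and the early zygotic list (25 genes) to 2568 to 3268 CPM, so RNA of early embryos was present in every library.

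The family clusters on chromosome II. On the WBcel235 assembly, 61 members lie on chromosome II, 5 on chromosome I, 3 on III, 1 on IV and 3 on V. Of the 61, 58 fall between positions 1028972 and 3733181 of chromosome II, among 671 other genes of the table. The densest stretch, with gaps of under 50 kb between neighbours, runs from 1763372 to 2046656 and holds 39 members, 29 MATH and 10 BATH. All 10 BATH genes of that stretch lie on the minus strand, while 18 of its MATH genes lie on the plus strand and 11 on the minus strand. A second stretch, from 3343731 to 3378834, holds 7 BATH genes and no MATH gene. Members have 2 to 12 exons (median 5).

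Most members were low in early embryos. Per kb of gene width, the wild-type level was highest for bath-42 (240.1 CPM per kb), followed by math-33 (153.8), bath-36 (79.5), bath-40 (76.2), bath-41 (71.8) and bath-10 (41.4). Apart from bath-10, these genes lie outside the chromosome II stretches described above, whereas bath-10 lies in the second one. math-33 encodes the worm relative of the deubiquitinase USP7, an enzyme that removes ubiquitin and thus works opposite to a ligase. At the other end, 4 members (math-5, math-8, math-13 and math-16) had 0 counts in all 14 libraries. In wild type, 23 members had at most 3 counts summed over the 3 libraries. All together the members took 0.192 to 0.195% of counts in the hpl-2 mutant, 0.184 to 0.188% in hpl-2-FFAA and 0.181 to 0.188% in met-2 hpl-2, against 0.184 to 0.186% in wild type.

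**Figure D1:**
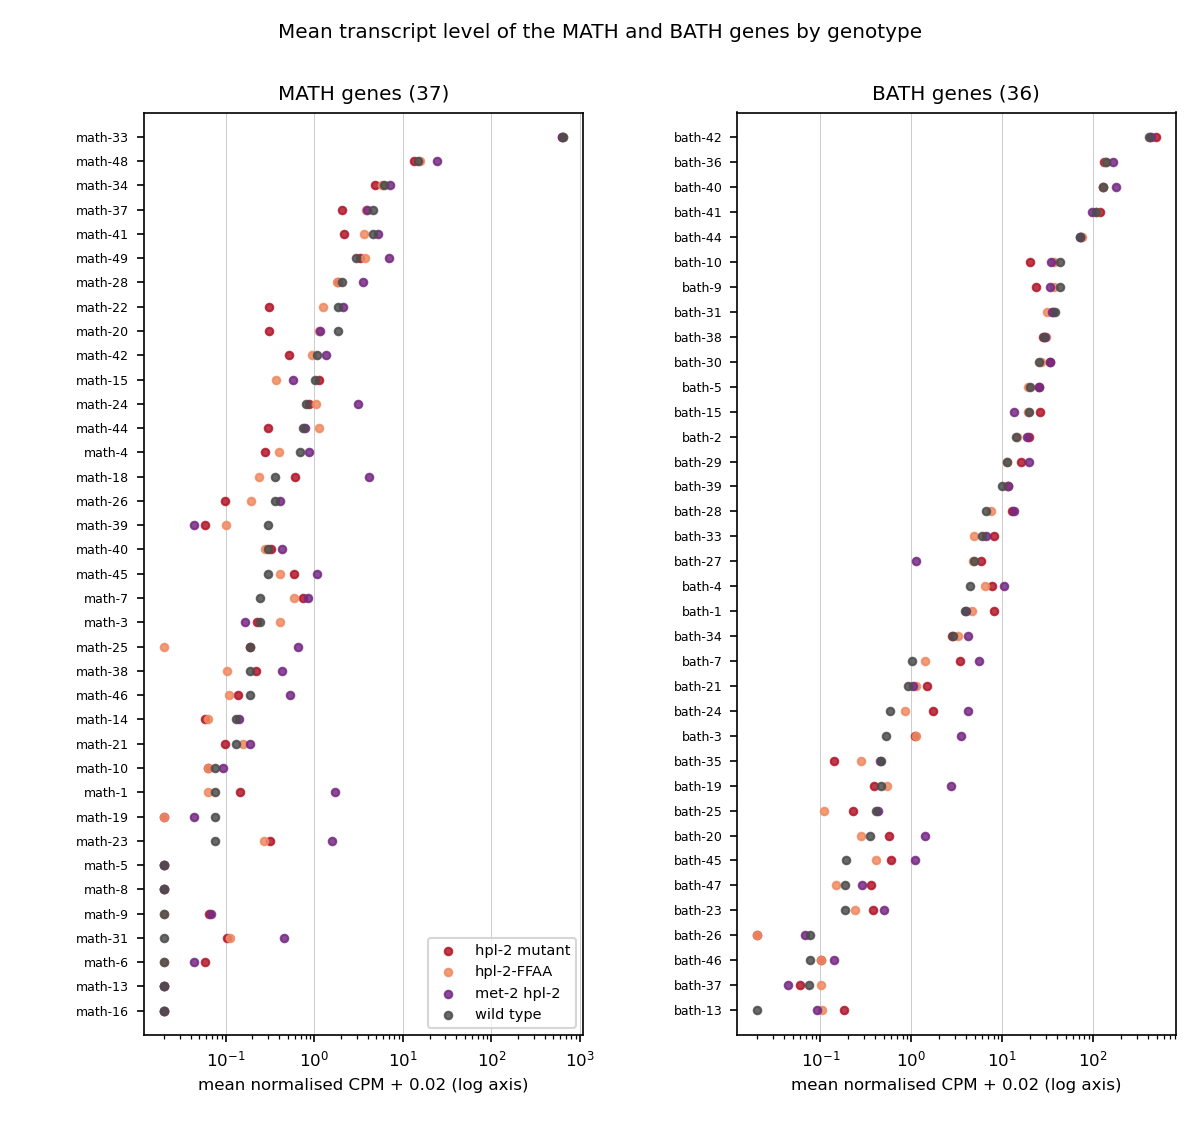
Mean normalised CPM plus 0.02 on a log axis for the 37 MATH genes (left) and 36 BATH genes (right), one row per gene, with a point for each of the 4 genotypes; genes at the left edge (0.02) had 0 counts. math-33 and bath-42 stand at the top with the points of all genotypes close together, and most MATH genes lie below 1 CPM.

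The low-count filter of the test, about 1.68 CPM in at least 3 libraries, let through 36 members, 11 MATH and 25 BATH. The other 37 members, 26 MATH and 11 BATH, were too low, with at most 26 counts in any library. Of these 37, 32 lie in the chromosome II interval. Among the 36, math-18, math-24, bath-3 and bath-19 reached the minimum only in met-2 hpl-2. They could be tested only because they were high there, so counts are also given for the other 32.

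The hpl-2 mutant was set against wild type to ask which members respond to its loss. In the hpl-2 mutant 12 members rose and 6 fell among 36 tested, in a background where 41.8% of all genes tested were called, 20.2% higher and 21.6% lower. A call is a Benjamini-Hochberg adjusted p under 0.05 in edgeR's quasi-likelihood test over all 9498 genes tested. All 12 that rose were BATH genes. The 6 that fell were 4 MATH and 2 BATH genes, so of the 25 BATH genes tested 12 rose and 2 fell, and of the 11 MATH genes 0 rose and 4 fell. The median log2 fold change was 0.28 over the BATH genes and -0.16 over the MATH genes, against 0.00 over all genes. The shares of BATH genes higher (48.0%) and MATH genes lower (36.4%) were above the background shares, and no test between lists was made. Both shares are limited by single members. Of the 4 MATH genes that fell, math-20 and math-22 had the same counts in every hpl-2 mutant library. math-20 reached the filter's minimum only in wild-type and hpl-2-FFAA libraries. The 12 BATH genes include bath-7 and bath-24, which passed the filter only through strains with tm1489, where they were high. None of the 4 members that passed only through met-2 hpl-2 was called here. The counts of 12 and 6 therefore could not change without them.

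The largest rises were in low BATH genes. bath-7 (WBGene00018667, chromosome II, 1919888 to 1921118, minus strand) had 3.15, 3.69, 2.57 and 4.29 CPM in hpl-2 mutant libraries, against 1.52, 0.673 and 0.822 CPM in wild type (log2 fold change 1.75, SE 0.339, edgeR adjusted p = 0.000536). bath-24 (WBGene00015014, chromosome II, 2044619 to 2045605, minus strand) had 1.73, 2.00, 1.71 and 1.43 CPM in the hpl-2 mutant, against 0.339, 0.673 and 0.658 CPM in wild type (log2 1.60, SE 0.442, edgeR adjusted p = 0.00733). For both genes every mutant library lay above every wild-type library, on 8 to 24 counts per mutant library against 2 to 9 per wild-type library. No wild-type library of either gene reached the filter's minimum of about 1.68 CPM. They could be tested only because they were high in the strains with tm1489, so their being higher there follows in part from the filter. bath-1 (WBGene00019139, chromosome II, 2027612 to 2028812, minus strand) had 8.81, 8.91, 7.37 and 7.33 CPM in the hpl-2 mutant, against 4.23, 3.03 and 4.44 CPM in wild type (log2 1.06, SE 0.189, edgeR adjusted p = 0.000272). bath-28 (WBGene00017461, chromosome II, 3343731 to 3344967, minus strand) had 11.96, 11.83, 13.2 and 13.4 CPM in the hpl-2 mutant, against 5.93, 6.22 and 7.40 CPM in wild type (log2 0.94, SE 0.146, edgeR adjusted p = 7.55e-05). These 2 genes also separated fully between the groups, at about 2-fold. bath-28 shares 24 exon bases on the same strand with F14D2.15, which was itself higher in the hpl-2 mutant (log2 0.83, SE 0.219, edgeR adjusted p = 0.00563), and no source used here says how reads over shared bases were counted.

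The other 8 BATH genes that rose did so by 0.25 to 0.80 on the log2 scale. bath-42, the family's most abundant BATH gene, had 467.8, 495.7, 485.0 and 510.2 CPM in the hpl-2 mutant, against 410.9, 412.1 and 408.9 CPM in wild type (log2 0.25, SE 0.0449, edgeR adjusted p = 0.000249). Its wild-type libraries lay within 4 CPM of each other and below every mutant library. bath-41, by contrast, had 116.9, 122.2, 117.6 and 121.2 CPM in the hpl-2 mutant, against 103.5, 106.8 and 111.4 CPM in wild type, without overlap but also without passing (log2 0.16, edgeR adjusted p = 0.0574). math-33, the most abundant MATH gene, had 646.2, 632.0, 630.8 and 602.9 CPM in the hpl-2 mutant, against 645.8, 636.2 and 657.8 CPM in wild type (log2 -0.04). It did not pass, and its groups overlapped. Named after their values were seen, bath-4 (log2 0.80), bath-29 (0.49), bath-2 (0.47), bath-33 (0.43), bath-30 (0.39) and bath-5 (0.35) also rose. The calls of bath-33 and of bath-15 (log2 0.37, SE 0.14, edgeR adjusted p = 0.04) were close to the threshold. bath-33 lost its call without any 1 of the 4 hpl-2 mutant libraries or without wild-type replicate 2 or 3 (edgeR adjusted p up to 0.244 over all its lost settings), and bath-15 without hpl-2 mutant replicate 2, 3 or 4 or wild-type replicate 2 or 3 (up to 0.134). bath-5 lost it without hpl-2 mutant replicate 3 or wild-type replicate 1 or 3 (edgeR adjusted p up to 0.0881), and bath-4 without wild-type replicate 1 (0.0518).

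Among the members that fell, bath-9 and bath-10 were the most abundant. They are neighbours on the plus strand of chromosome II, bath-10 (WBGene00021726) at 3375079 to 3376721 and bath-9 (WBGene00021725) at 3377089 to 3378834, with 367 bases between them. bath-10 had 30.7, 17.1, 15.4 and 18.2 CPM in the hpl-2 mutant, against 39.3, 44.1 and 44.6 CPM in wild type (log2 -1.06, SE 0.192, edgeR adjusted p = 0.000309). bath-9 had 26.4, 21.1, 24.4 and 23.1 CPM in the hpl-2 mutant, against 41.99, 41.7 and 44.1 CPM in wild type (log2 -0.84, SE 0.14, edgeR adjusted p = 0.000143). No library of either gene overlapped between the groups, and replicate 1 was the highest of the 4 mutant libraries for both. bath-9 shares 208 exon bases on the same strand with Y49F6C.2, which averaged only 0.198 CPM in the hpl-2 mutant and 0.447 CPM in wild type.

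The 4 MATH genes that fell all lie on the left arm of chromosome II. math-41 (WBGene00020360, 1824629 to 1830228, plus strand) had 2.20, 1.84, 2.57 and 1.97 CPM in the hpl-2 mutant, against 4.91, 4.04 and 4.61 CPM in wild type (log2 -1.07, SE 0.22, edgeR adjusted p = 0.000883). math-37 (WBGene00020080, 2116884 to 2122191, minus strand) had 2.20, 2.46, 1.54 and 1.97 CPM in the hpl-2 mutant, against 4.06, 3.87 and 5.76 CPM in wild type (log2 -1.15, SE 0.234, edgeR adjusted p = 0.000818). Both genes stood lower in each mutant library than in any wild-type library. math-37 shares 11 exon bases on the same strand with srh-195, which was also lower in the hpl-2 mutant (log2 -0.83, SE 0.327, edgeR adjusted p = 0.0482). math-22 (WBGene00016717) and math-20 (WBGene00016555) each had 5, 0, 0 and 2 counts in hpl-2 mutant libraries, against 11, 12 and 10 counts for math-22 and 10, 13 and 10 counts for math-20 in wild type. Both had a log2 fold change of -2.61 (SE 0.731 for math-22 and 0.771 for math-20, edgeR adjusted p = 0.00822 and 0.0113). Without hpl-2 mutant replicate 1, which holds 5 of the 7 mutant counts, the fitted value of both was -3.86. The counts of these 2 genes were equal in 7 of 14 libraries, in all 4 of the hpl-2 mutant, so they cannot be taken as independent measurements. math-20 reached the filter's minimum in only 2 wild-type libraries and 1 hpl-2-FFAA library.

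Other gene lists moved alongside in the hpl-2 mutant. The maternal list summed to 13720, 14900, 15070 and 15770 CPM in hpl-2 mutant replicates 1 to 4, against 11780, 12150 and 11930 CPM in wild type, with 13 of its 23 tested genes higher and 0 lower. The early zygotic list summed to 2759, 2668, 2619 and 2568 CPM in the hpl-2 mutant, against 3169, 3222 and 3147 CPM in wild type, with 1 of 24 tested genes higher and 14 lower. Their part in the changes of the family was not tested. In bulk RNA of embryos, fewer cells of a type and less RNA per cell cannot be told apart. Groups did not overlap for 18 of the 36 members, where they did not overlap for 49.0% of all genes tested.

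**Figure D2:**
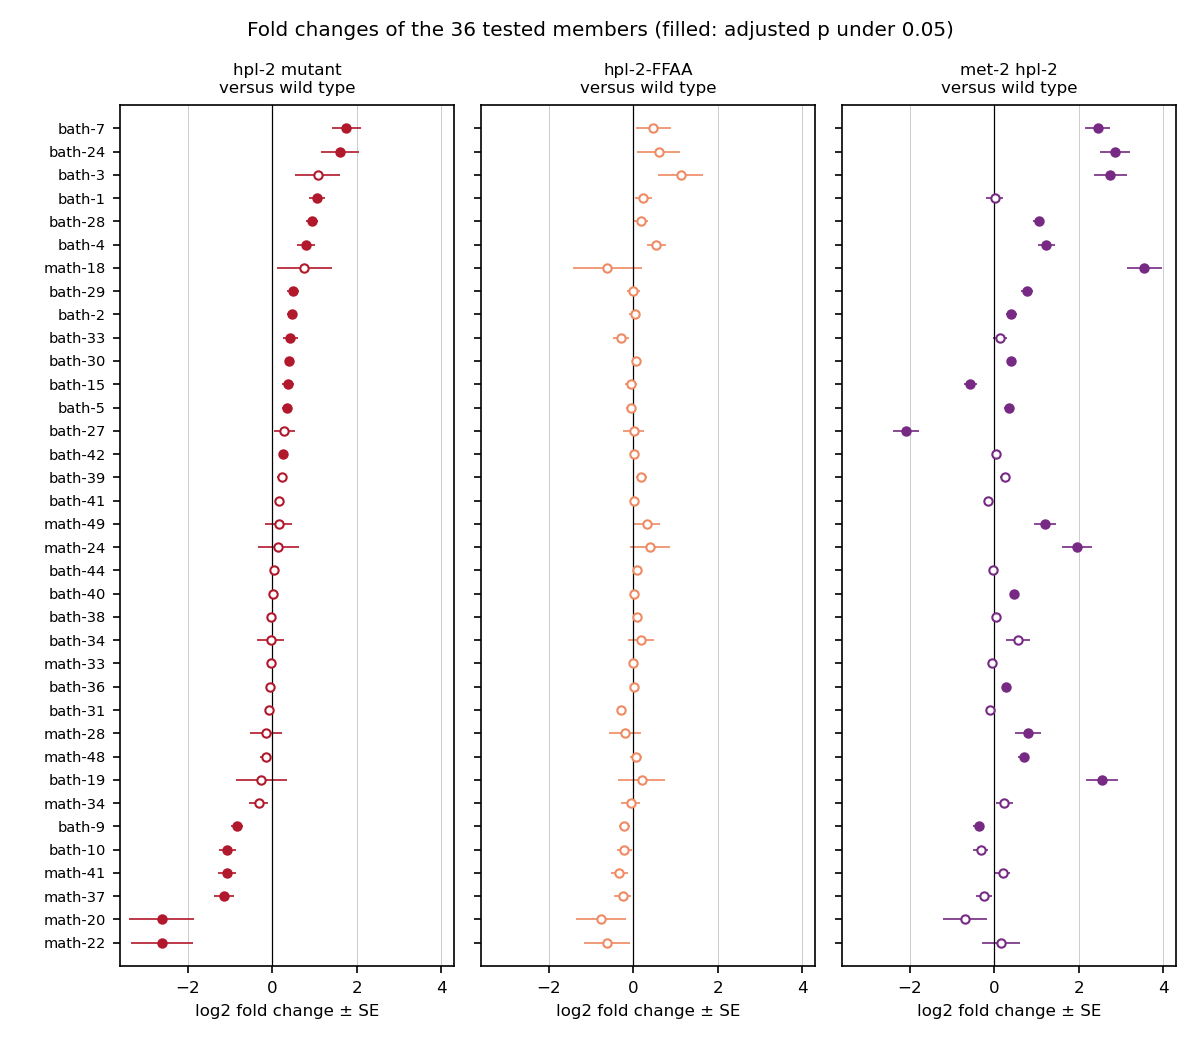
Log2 fold change with its SE for the 36 tested members (rows, ordered by the hpl-2 mutant), in panels for the hpl-2 mutant, for hpl-2-FFAA and for met-2 hpl-2, each against wild type; filled points have an adjusted p under 0.05. The left panel runs from 1.75 for bath-7 to -2.61 for math-22, the middle panel has no filled point, and in the right panel 17 points are filled above 0 and 3 below.

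In hpl-2-FFAA 0 of the 36 members rose and 0 fell against wild type, in a background where 0.779% of all genes tested were called in edgeR (0.547% higher and 0.232% lower). Log2 fold changes ran from -0.77 (math-20) to 1.12 (bath-3), with a median of 0.02 against 0.00 over all genes. At an unadjusted p under 0.05, 3 members passed in edgeR and 2 in DESeq2, which also called 0 members after adjustment. The share of all genes passing that unadjusted limit was not counted, so nothing about the members is read from these numbers. The 3 in edgeR were bath-31 (edgeR adjusted p = 0.242), bath-4 (0.424) and bath-3 (0.508), named after their values were seen. Of these, bath-3 passed the low-count filter only through met-2 hpl-2. Groups did not overlap for 3 members (8.33%), against 9.7% of all genes.

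The 4 hpl-2-FFAA libraries differed among themselves for several members. bath-9 had 42.2, 47.5, 27.3 and 31.4 CPM in hpl-2-FFAA replicates 1 to 4, against 41.99, 41.7 and 44.1 CPM in wild type. bath-10 had 39.5, 49.2, 27.4 and 31.9 CPM in hpl-2-FFAA, against 39.3, 44.1 and 44.6 CPM in wild type. Replicates 3 and 4 lay below every wild-type library for both genes, whereas replicates 1 and 2 lay at or above the lowest one. Counts of math-22 were 6, 16, 3 and 3 in hpl-2-FFAA, against 11, 12 and 10 in wild type, with replicate 2 highest again. math-37 and math-41 showed no such split, with replicate 4 highest for math-37 (3.71, 3.34, 3.39 and 4.88 CPM in hpl-2-FFAA) and all replicates close for math-41 (3.88, 3.53, 3.39 and 3.58 CPM). bath-42, which rose in the hpl-2 mutant, had 404.0, 387.0, 425.7 and 447.0 CPM in hpl-2-FFAA, against 410.9, 412.1 and 408.9 CPM in wild type. Here replicates 3 and 4 lay above every wild-type library and replicates 1 and 2 below. When only replicates 3 and 4 of hpl-2-FFAA were used, 2 of 38 members were called, both lower, namely bath-9 (log2 -0.54, SE 0.101, edgeR adjusted p = 0.00299) and bath-10 (log2 -0.52, SE 0.162, edgeR adjusted p = 0.0451), with 8.45% of all genes called. With replicates 1 and 2 alone, 0 of 37 members were called, where 0.505% of all genes were called. The maternal list summed to 11570, 11080, 13540 and 13750 CPM in hpl-2-FFAA replicates 1 to 4, against 11780 to 12150 CPM in wild type, and its part in these values was not tested.

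**Figure D3:**
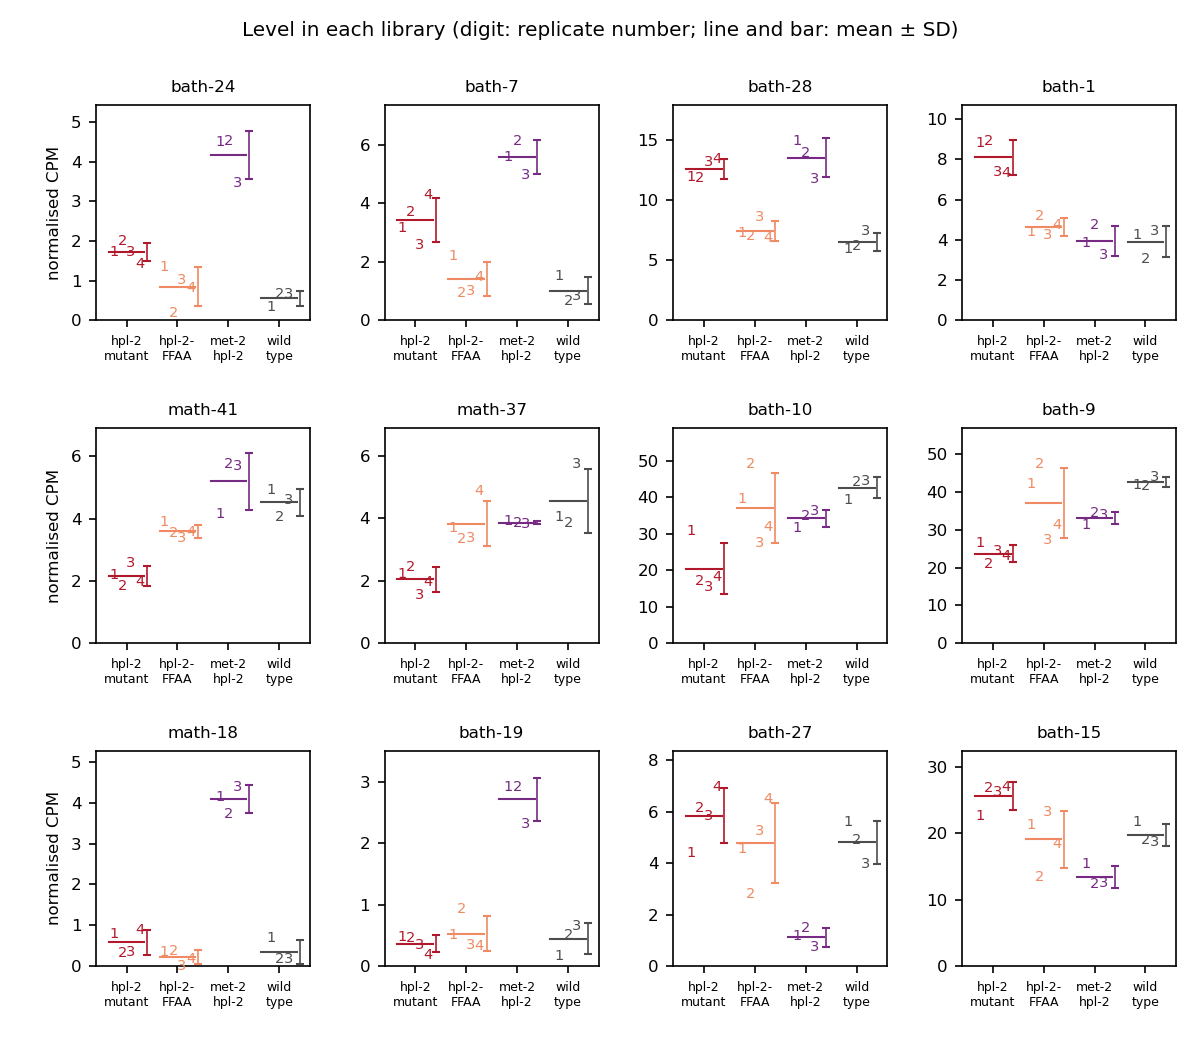
Normalised CPM of 12 members in every library, with digits for the replicate number and a line and bar for the mean ± SD of each genotype. The top row shows BATH genes that rose in the hpl-2 mutant, the middle row members that fell there, and the bottom row math-18 and bath-19, high in met-2 hpl-2, with bath-27 and bath-15, low in met-2 hpl-2; for bath-9 and bath-10 the digits 1 and 2 of hpl-2-FFAA lie above 3 and 4.

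Set directly against the hpl-2 mutant, hpl-2-FFAA had 5 members higher and 11 lower of 36, where 35.2% of all genes tested were called (18.7% higher and 16.5% lower). All 11 lower members were BATH genes, while the 5 higher ones were math-22, math-37, math-41, bath-9 and bath-10. All 11 had been called higher in the hpl-2 mutant against wild type, and all 5 had been called lower there. Both comparisons use the same hpl-2 mutant libraries, so these opposite directions were favoured in advance. bath-7 had 2.19, 0.928, 1.02 and 1.46 CPM in hpl-2-FFAA, against 3.15, 3.69, 2.57 and 4.29 CPM in the hpl-2 mutant (log2 -1.27, SE 0.288, edgeR adjusted p = 0.00265). bath-28 had 7.25, 7.05, 8.63 and 6.83 CPM in hpl-2-FFAA, against 11.96, 11.83, 13.2 and 13.4 CPM in the hpl-2 mutant (log2 -0.75, SE 0.131, edgeR adjusted p = 0.000369). Its overlapping neighbour F14D2.15 was lower too (log2 -0.62, SE 0.197, edgeR adjusted p = 0.0208). All hpl-2-FFAA libraries lay below all hpl-2 mutant libraries for bath-7 and bath-28. The same separation held for bath-1, at 4.38, 5.195, 4.23 and 4.72 CPM in hpl-2-FFAA, against 8.81, 8.91, 7.37 and 7.33 CPM in the hpl-2 mutant (log2 -0.81, SE 0.168, edgeR adjusted p = 0.00133). bath-24 averaged 0.841 ± 0.489 CPM in hpl-2-FFAA and 1.72 ± 0.232 CPM in the hpl-2 mutant (SD, n = 4 each; edgeR adjusted p = 0.0418). That call ended without any 1 of the hpl-2 mutant libraries or without hpl-2-FFAA replicate 2 or 4 (adjusted p up to 0.164 over all its lost settings). bath-7 and bath-24 passed the filter only through the hpl-2 mutant and met-2 hpl-2. Their being lower in hpl-2-FFAA than in the hpl-2 mutant follows in part from that.

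Of the 5 higher members, math-37 averaged 3.83 ± 0.721 CPM in hpl-2-FFAA and 2.04 ± 0.389 CPM in the hpl-2 mutant (SD, n = 4 each; log2 0.90, SE 0.227, edgeR adjusted p = 0.00539). srh-195, which overlaps it, was higher as well (log2 1.28, SE 0.287, edgeR adjusted p = 0.00247). math-41 averaged 3.59 ± 0.207 CPM in hpl-2-FFAA and 2.15 ± 0.320 CPM in the hpl-2 mutant (log2 0.74, SE 0.217, edgeR adjusted p = 0.0129). The log2 fold change of bath-10 was 0.85 (SE 0.184, edgeR adjusted p = 0.00192) and that of bath-9 was 0.64 (SE 0.134, edgeR adjusted p = 0.00148). bath-10 overlapped between the groups, since hpl-2 mutant replicate 1 (30.7 CPM) lay above hpl-2-FFAA replicate 3 (27.4 CPM). The call of math-22 (log2 2.00, SE 0.764, edgeR adjusted p = 0.0492) rested on single libraries: its value was 1.17 without hpl-2-FFAA replicate 2 (edgeR adjusted p = 0.264) and 3.25 without hpl-2 mutant replicate 1. It was also lost without hpl-2-FFAA replicate 1 or hpl-2 mutant replicate 2, 3 or 4. Using only replicates 3 and 4 of hpl-2-FFAA, 8 of the 16 calls of this comparison held the threshold. In that fit 15.3% of all genes tested were called, in place of 35.2%. The maternal list summed to 11080 to 13750 CPM in hpl-2-FFAA and to 13720 to 15770 CPM in the hpl-2 mutant, and its part in these differences was not tested. Groups did not overlap for 14 of the 36 members (38.9%), against 29.4% of all genes tested.

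In met-2 hpl-2 embryos 17 members rose and 3 fell against wild type, in a background where 58.1% of all genes tested were called, 28.7% higher and 29.4% lower. The 17 were 5 MATH and 12 BATH genes, and the 3 that fell were BATH genes. The median log2 fold change was 0.26 over the 36 members, 0.24 over the MATH genes and 0.28 over the BATH genes, against -0.00 over all genes. Without the 4 members that passed the filter only here, 13 rose and 3 fell of 32, with a median of 0.22. Scaled by library size alone, 15 rose and 5 fell.

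The 5 tested members with the highest fold changes in met-2 hpl-2 had at most 9 counts in any wild-type library. For math-18, bath-3 and bath-19 this follows in part from the filter, which they passed only through met-2 hpl-2. bath-24 and bath-7 passed it only through met-2 hpl-2 and the hpl-2 mutant, where they were high. math-18 (WBGene00016544, chromosome II, 2154008 to 2155220, plus strand) had 4.14, 3.72 and 4.397 CPM in met-2 hpl-2, against 0.677, 0.168 and 0.165 CPM in wild type (log2 3.55, SE 0.416, edgeR adjusted p = 1.1e-06). Its wild-type libraries held 4, 1 and 1 counts, and without replicate 1 the log2 fold change was 4.49. bath-24 had 4.501, 4.52 and 3.46 CPM in met-2 hpl-2, against 0.339, 0.673 and 0.658 CPM in wild type (log2 2.86, SE 0.355, edgeR adjusted p = 2.18e-06). All met-2 hpl-2 libraries stood clear of wild type for both genes. bath-3 (WBGene00019140, chromosome II, 2029236 to 2030467, minus strand) had 3.78, 3.14 and 3.53 CPM in met-2 hpl-2, against 0.677, 0.841 and 0 CPM in wild type (log2 2.75, SE 0.399, edgeR adjusted p = 1.26e-05). bath-19 (WBGene00019132, chromosome II, 2035695 to 2039388, minus strand) had 2.90, 2.92 and 2.31 CPM in met-2 hpl-2, against 0.169, 0.505 and 0.658 CPM in wild type (log2 2.56, SE 0.376, edgeR adjusted p = 1.47e-05). bath-1, bath-3, bath-19 and bath-24 lie within 20 kb of each other on the minus strand. bath-1 stood apart from the other 3, at 3.85, 4.74 and 3.24 CPM in met-2 hpl-2 against 4.23, 3.03 and 4.44 CPM in wild type. bath-5, named after its values were seen, starts between bath-3 and bath-19 and rose by less (log2 0.35). It averaged 25.51 CPM in met-2 hpl-2 and 20.03 CPM in wild type. bath-7 had 5.59, 6.13 and 4.97 CPM in met-2 hpl-2, against 1.52, 0.673 and 0.822 CPM in wild type (log2 2.45, SE 0.299, edgeR adjusted p = 1.75e-06).

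More abundant members outside the clusters changed little or moderately. bath-40 (WBGene00013689, chromosome I) had 175.4, 179.6 and 175.2 CPM in met-2 hpl-2, against 120.6, 130.9 and 127.6 CPM in wild type (log2 0.48, SE 0.0474, edgeR adjusted p = 1.22e-07). bath-36 (WBGene00013569, chromosome V) had 148.3, 172.7 and 175.4 CPM in met-2 hpl-2, against 140.9, 132.9 and 136.4 CPM in wild type (log2 0.28, SE 0.0588, edgeR adjusted p = 0.000604). Every met-2 hpl-2 library exceeded every wild-type library in both cases. math-33 had 621.0, 614.0 and 636.1 CPM in met-2 hpl-2, against 645.8, 636.2 and 657.8 CPM in wild type (log2 -0.05, edgeR adjusted p = 0.217). bath-41 (log2 -0.15) and bath-42 (log2 0.05, edgeR adjusted p = 0.331) also did not pass.

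The remaining 10 members that rose had log2 fold changes of 0.35 to 1.96. Those of bath-28 (1.05, SE 0.14, edgeR adjusted p = 4.76e-06) and, named after their values were seen, math-24 (1.96), bath-4 (1.23), math-49 (1.21), math-28 (0.81), bath-29 (0.78) and math-48 (0.70) were the larger ones. The call of math-28 ended without met-2 hpl-2 replicate 2 or wild-type replicate 1 or 3. It also ended in DESeq2, with library size alone and with met-2 hpl-2 libraries thinned (edgeR or DESeq2 adjusted p of 0.051 to 0.17 over these settings). The call of bath-2 (0.41) ended without wild-type replicate 1 (edgeR adjusted p = 0.0655). That of bath-5 (0.35) ended without wild-type replicate 3 or with library size alone (edgeR adjusted p up to 0.0665). F14D2.15, which shares 24 exon bases with bath-28, was lower in met-2 hpl-2 (log2 -0.67, SE 0.245, edgeR adjusted p = 0.0265).

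bath-27 (WBGene00017450, chromosome II, 3359139 to 3361451, plus strand) fell most in met-2 hpl-2. It had 1.16, 1.46 and 0.721 CPM in met-2 hpl-2, against 5.59, 4.88 and 3.95 CPM in wild type (log2 -2.09, SE 0.308, edgeR adjusted p = 1.47e-05). The hpl-2 mutant libraries held 4.41, 6.15, 5.83 and 6.97 CPM, so the low values were those of met-2 hpl-2. bath-27 shares 610 exon bases on the same strand with lido-14, whose own log2 fold change in met-2 hpl-2 was -0.22 (SE 0.237, edgeR adjusted p = 0.438). bath-15 (WBGene00015590, chromosome III, 7774677 to 7776033, minus strand) had 15.3, 12.4 and 12.5 CPM in met-2 hpl-2, against 21.7, 19.01 and 18.6 CPM in wild type (log2 -0.56, SE 0.147, edgeR adjusted p = 0.00345). bath-9 had 31.4, 34.4 and 33.8 CPM in met-2 hpl-2, against 41.99, 41.7 and 44.1 CPM in wild type (log2 -0.36, SE 0.131, edgeR adjusted p = 0.0251), a call that ended without met-2 hpl-2 replicate 1 or wild-type replicate 3 (edgeR adjusted p = 0.0713 to 0.0762). All 3 genes were lower in each met-2 hpl-2 library than in any wild-type library.

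Markers of differentiated tissue moved with this genotype. The 9 muscle genes summed to 110.9, 100.8 and 131.3 CPM in met-2 hpl-2, against 39.3, 34.3 and 42.1 CPM in wild type, with 7 of 7 tested genes higher, 3 of which passed the filter only through met-2 hpl-2. The 8 epidermis genes summed to 809.0, 888.3 and 1039 CPM in met-2 hpl-2, against 411.4, 395.1 and 415.1 CPM in wild type, with 6 of 7 higher and 0 lower, 1 of the 7 having passed only through met-2 hpl-2. None of these muscle and epidermis genes was at 0 in all met-2 hpl-2 libraries, and 1 of each list was at 0 in all wild-type libraries. The 7 intestine genes summed to 42.3 to 53.3 CPM in met-2 hpl-2, against 27.4 to 31.5 CPM in wild type, with 4 of 5 tested genes higher, 2 of the 5 having passed only through met-2 hpl-2, and 1 gene of the list at 0 in both groups. The 8 neuron genes summed to 496.5 to 544.4 CPM in met-2 hpl-2, against 411.6 to 452.3 CPM in wild type, with 3 of 6 tested genes higher and 1 lower. Their part in the rises of the family was not tested. Groups did not overlap for 24 of the 36 members (66.7%), against 67.1% of all genes tested.

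Between the 2 strains with the tm1489 allele, 21 members were higher and 5 lower in met-2 hpl-2 than in the hpl-2 mutant, where 71.2% of all genes tested were called, 36.0% higher and 35.2% lower. Scaled by library size alone, which moves the median of all genes from 0.014 to -0.088, 18 were higher and 8 lower. Of the 11 MATH genes 10 were higher and 0 lower, with a median log2 difference of 1.06. Of the 25 BATH genes 11 were higher and 5 lower, with a median of 0.07. Without the 4 members that passed the filter only in met-2 hpl-2, the counts were 17 and 5 of 32. Groups did not overlap for 24 of the 36 members (66.7%), against 69.9% of all genes tested.

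Of the MATH genes that fell in the hpl-2 mutant, each was higher in met-2 hpl-2 than there. These genes were picked as low in the same hpl-2 mutant libraries, so a rise from that level was favoured in advance. The same holds for bath-10, given last. Against wild type, met-2 hpl-2 gave no call for math-41 (log2 0.20), math-22 (0.17), math-37 (-0.24) or math-20. math-41 had 4.14, 5.76 and 5.69 CPM in met-2 hpl-2, against 2.20, 1.84, 2.57 and 1.97 CPM in the hpl-2 mutant (log2 1.27, SE 0.189, edgeR adjusted p = 8.88e-06). math-37 had 3.92, 3.87 and 3.82 CPM in met-2 hpl-2, against 2.20, 2.46, 1.54 and 1.97 CPM in the hpl-2 mutant (log2 0.91, SE 0.211, edgeR adjusted p = 0.000876). The groups were apart for both genes. math-22 had 21, 30 and 35 counts in met-2 hpl-2 libraries, against 5, 0, 0 and 2 counts in the shallower hpl-2 mutant libraries (log2 2.78, SE 0.631, edgeR adjusted p = 0.000689, or 4.04 without hpl-2 mutant replicate 1). math-20 had 7, 17 and 23 counts in met-2 hpl-2, against the same 5, 0, 0 and 2 in the hpl-2 mutant (log2 1.92, SE 0.75, edgeR adjusted p = 0.0288). Its value was 3.17 without hpl-2 mutant replicate 1, and its call ended without hpl-2 mutant replicate 2 or 3 or met-2 hpl-2 replicate 2 or 3 (edgeR adjusted p up to 0.11). In met-2 hpl-2 math-20 averaged 1.13 ± 0.582 CPM, against 1.84 ± 0.300 CPM in wild type, and did not pass (log2 -0.69, SE 0.529, edgeR adjusted p = 0.276). bath-10 was higher in met-2 hpl-2 (31.5, 34.9 and 36.2 CPM) than in the hpl-2 mutant (30.7, 17.1, 15.4 and 18.2 CPM; log2 0.74, SE 0.18, edgeR adjusted p = 0.00128).

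Among the tested members, math-18 and bath-19 differed most between these strains, followed by math-22. math-18 averaged 4.09 ± 0.342 CPM in met-2 hpl-2 (SD, n = 3) and 0.583 ± 0.301 CPM in the hpl-2 mutant (n = 4; log2 2.79, SE 0.329, edgeR adjusted p = 5.79e-07). bath-19 averaged 2.71 ± 0.349 CPM in met-2 hpl-2 and 0.364 ± 0.137 CPM in the hpl-2 mutant (log2 2.82, SE 0.35, edgeR adjusted p = 1.09e-06). Both had passed the filter only through met-2 hpl-2. Among the 5 lower members, bath-27 had a log2 difference of -2.37 (SE 0.276, edgeR adjusted p = 4.94e-07) and bath-15 of -0.93 (SE 0.131, edgeR adjusted p = 4.83e-06). lido-14, which overlaps bath-27, was lower by less (log2 -0.67, SE 0.206, edgeR adjusted p = 0.0077). bath-1 averaged 3.94 ± 0.753 CPM in met-2 hpl-2 and 8.11 ± 0.875 CPM in the hpl-2 mutant, with no overlap (log2 -1.04, SE 0.159, edgeR adjusted p = 1.21e-05). bath-41 (log2 -0.31, SE 0.0603, edgeR adjusted p = 0.000185) and bath-42 (log2 -0.20, SE 0.0437, edgeR adjusted p = 0.000526) were lower by smaller amounts. Among the higher members, these named after their values were seen, bath-34 lost its call without hpl-2 mutant replicate 1, 2 or 4 or met-2 hpl-2 replicate 2 or 3 (edgeR adjusted p up to 0.215 over all its lost settings). bath-29 lost it without hpl-2 mutant replicate 3 or 4 or met-2 hpl-2 replicate 1. It also lost it with met-2 hpl-2 libraries thinned, in DESeq2, with library size alone and with no filter (edgeR or DESeq2 adjusted p up to 0.257). bath-4 lost its call without hpl-2 mutant replicate 3 or met-2 hpl-2 replicate 1, or with library size alone (edgeR adjusted p up to 0.0769). math-34 lost its call without hpl-2 mutant replicate 3 (edgeR adjusted p = 0.0615). The muscle list summed to 100.8 to 131.3 CPM in met-2 hpl-2 and to 23.5 to 34 CPM in the hpl-2 mutant, and the maternal list to 11390 to 12320 CPM in met-2 hpl-2 and to 13720 to 15770 CPM in the hpl-2 mutant; their part in these differences was not tested.

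**Figure D4:**
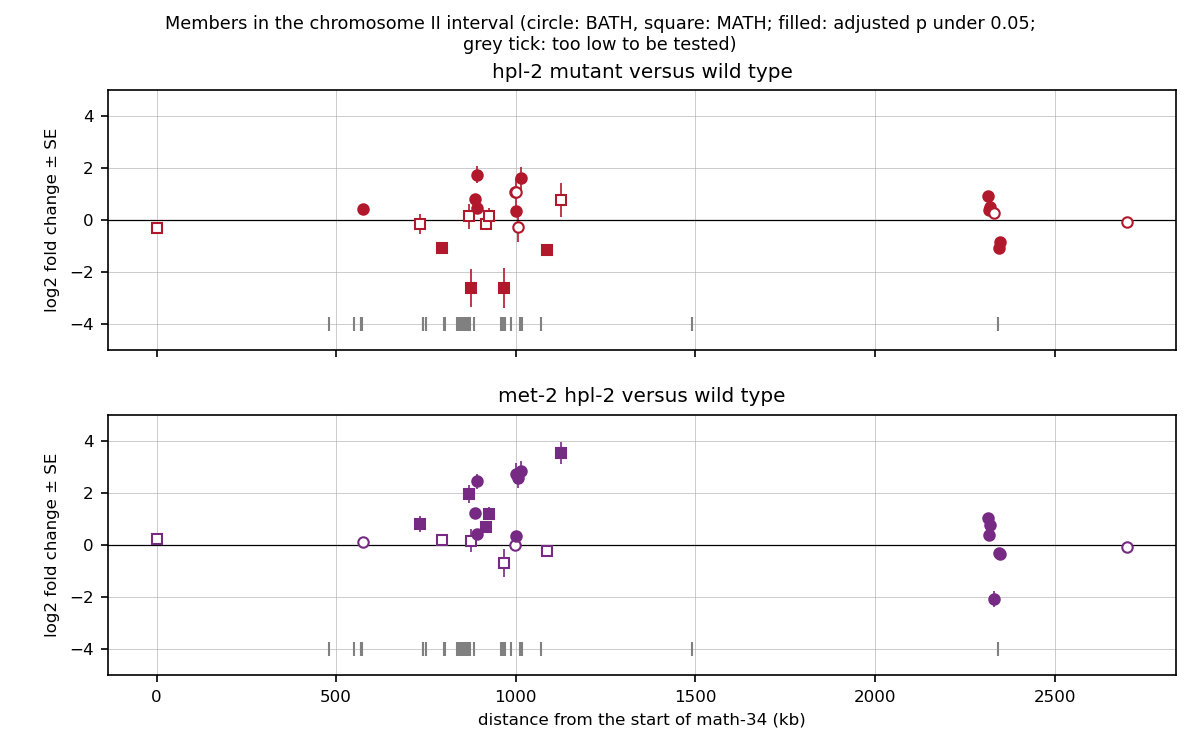
Log2 fold change with its SE of the members in the chromosome II interval against their distance in kb from the start of math-34, for the hpl-2 mutant (top) and met-2 hpl-2 (bottom), each against wild type; circles are BATH genes, squares MATH genes, filled symbols have an adjusted p under 0.05 and grey ticks mark members too low to be tested. In the densest stretch the top panel has filled circles above 0 and filled squares below, while the bottom panel has filled symbols of both kinds above 0.

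Members of both kinds sit side by side on chromosome II. Over all genes tested, 20.2% rose and 21.6% fell in the hpl-2 mutant, and 28.7% rose and 29.4% fell in met-2 hpl-2. In the densest stretch, 6 of 8 tested BATH genes rose and 0 fell in the hpl-2 mutant (median log2 0.93), whereas 0 of 7 tested MATH genes rose and 3 fell (median -0.16). Among those 3 are math-20 and math-22, which had the same counts in every hpl-2 mutant library. In met-2 hpl-2, 7 of the 8 BATH genes rose (median 1.84) and 4 of the 7 MATH genes rose (median 0.70), with 0 lower in either kind. Without bath-3, bath-19 and math-24, which passed the filter only through met-2 hpl-2, 5 of 6 BATH genes (median 0.82) and 3 of 6 MATH genes (median 0.45) rose there. In the hpl-2 mutant, 6 of these 6 BATH genes rose (median 0.93) and 3 of these 6 MATH genes fell (median -0.62). These higher shares arise because the genes left out were not called in the hpl-2 mutant. bath-7 and bath-24 were kept, although they passed the filter only through strains with tm1489, where they were high. math-20 was also kept, although it reached the filter's minimum only in wild-type and hpl-2-FFAA libraries. In the second stretch 3 of 6 tested BATH genes rose and 2 fell in the hpl-2 mutant, and the same counts were found in met-2 hpl-2. The same 3 genes rose in both strains. Those that fell were bath-9 and bath-10 in the hpl-2 mutant, but bath-9 and bath-27 in met-2 hpl-2. Over the whole interval 10 of 26 tested members rose and 6 fell in the hpl-2 mutant, while of the 271 other tested genes of the interval 40 rose and 86 fell. In met-2 hpl-2, 15 of the 26 rose and 2 fell, and of the 271 others 86 rose and 56 fell. Without the genes that passed the filter only through met-2 hpl-2, these counts were 11 and 2 of 22 members and 68 and 56 of 253 others. Of the 10 tested members elsewhere in the genome, 2 rose and 0 fell in the hpl-2 mutant, and 2 rose and 1 fell in met-2 hpl-2. No test between these sets was made.

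Members too low for the filter were read from counts. In a fit with no filter, 33 of the 37 had a value. Of these 33, 7 rose in met-2 hpl-2 against wild type and 0 fell, where 34.0% of 18587 genes were called. In the hpl-2 mutant and in hpl-2-FFAA 0 changed, where 20.3% and 0.516% of those genes were called. The met-2 hpl-2 libraries were deeper and were not thinned for this fit. math-1 (chromosome II, 2046053 to 2046656, minus strand) had 26, 24 and 20 counts in met-2 hpl-2, against 0, 0 and 1 in wild type. math-23 (chromosome II, 1902281 to 1904446, plus strand) had 19, 22 and 24 counts in met-2 hpl-2, against 0, 0 and 1 in wild type. With depth taken into account these are ratios of 30.3 (exact 95% interval 5.27 to 1220) and 28.2 (4.88 to 1130), intervals that cover counting error only. Members given an interval here were picked for few wild-type counts and a high mean in a mutant. High ratios were thus favoured by that choice, which the intervals do not allow for. The hpl-2 mutant libraries held 0, 1, 2 and 0 counts of math-1 and 0, 1, 4 and 2 of math-23. bath-45 had 15 counts in each met-2 hpl-2 library, against 2, 1 and 0 in wild type, a ratio with an exact 95% interval of 2.09 to 32.7. math-25 had 4, 12 and 10 counts in met-2 hpl-2, against 1, 0 and 2 in wild type (ratio 3.76, exact 95% interval 1.15 to 19.4), but was not called in the fit with no filter (edgeR adjusted p = 0.0842). The intervals of math-46 (ratio 3.03, 0.906 to 15.9) and bath-23 (2.89, 0.857 to 15.2) included 1. bath-20 (log2 1.98), math-45 (1.80) and math-7 (1.77), named after their values were seen, were called in that fit, whereas math-46 and bath-23 were not. Also named after its values were seen, math-31 had 6, 4 and 8 counts in met-2 hpl-2 and 0 in all wild-type libraries, at least 2.60-fold higher when 3 counts over the group are taken as the limit.

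Among the genes of the machinery that BATH adaptors work with, called changes were small. Their counts stand beside 20.2% of all genes higher and 21.6% lower in the hpl-2 mutant, and 28.7% higher and 29.4% lower in met-2 hpl-2. cul-3, the cullin itself, averaged 254.3 ± 8.18 CPM in the hpl-2 mutant, 271.3 ± 9.35 CPM in hpl-2-FFAA and 274.0 ± 6.21 CPM in met-2 hpl-2, against 266.8 ± 6.74 CPM in wild type, and passed in none of them (edgeR adjusted p = 0.171, 0.908 and 0.441). mel-26, a MATH-BTB adaptor with a symbol of its own, rose in the hpl-2 mutant to 341.3 ± 14.4 CPM, against 301.2 ± 4.59 CPM in wild type (log2 0.18, SE 0.0518, edgeR adjusted p = 0.00966). It did not pass in hpl-2-FFAA (log2 0.05) or met-2 hpl-2 (log2 -0.05). Of 10 CUL-3 and neddylation genes, 2 rose and 4 fell in the hpl-2 mutant, 0 changed in hpl-2-FFAA, and 4 rose and 1 fell in met-2 hpl-2. The largest of these was rbx-2, which encodes a RING subunit of cullin ligases (log2 0.39, SE 0.086, edgeR adjusted p = 0.00142 in the hpl-2 mutant). ubc-12, the conjugating enzyme for NED-8, fell in the hpl-2 mutant (log2 -0.32, SE 0.0517, edgeR adjusted p = 0.000102) and rose in met-2 hpl-2 (log2 0.14, SE 0.0513, edgeR adjusted p = 0.0305).

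The COP9 signalosome, which removes NED-8 from cullins, had 4 of 6 genes lower in met-2 hpl-2, where 29.4% of all genes were lower, and 0 changed in the hpl-2 mutant or hpl-2-FFAA. Its csn-1 had a log2 fold change of -0.64 (SE 0.0455, edgeR adjusted p = 2.51e-09) and csn-2 of -0.36 (SE 0.0412, edgeR adjusted p = 9.53e-07) in met-2 hpl-2. Of 5 genes for targets and partners of MEL-26, 3 rose in the hpl-2 mutant and 0 fell, among them pod-1 (log2 0.22, SE 0.0363, edgeR adjusted p = 0.000148), while 2 rose and 2 fell in met-2 hpl-2. Of 14 tested genes named btb or kel, which hold a BTB domain without the MATH name, 2 rose and 4 fell in the hpl-2 mutant, 0 rose and 1 fell in hpl-2-FFAA, and 6 rose and 2 fell in met-2 hpl-2. btb-20 rose most in both, to 7.83 ± 1.24 CPM in the hpl-2 mutant and 14.02 ± 1.08 CPM in met-2 hpl-2, against 3.62 ± 0.988 CPM in wild type (edgeR adjusted p = 0.000545 and 1.11e-07). Of the other 5 cullin genes, 0 rose and 2 fell in the hpl-2 mutant, and 0 rose and 1 fell in met-2 hpl-2.

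Adaptors of the CUL-1 ligases, which belong to another ligase class, gave other counts. Of 18 tested SKP1-related genes, 1 rose and 12 fell in the hpl-2 mutant, and 9 rose and 2 fell in met-2 hpl-2. Of 98 tested fbxb F-box genes 1 rose and 61 fell in the hpl-2 mutant, and of 31 fbxc genes 1 rose and 19 fell, whereas of the 25 tested BATH genes 12 rose and 2 fell. Of 44 tested fbxa genes 10 rose and 5 fell. In met-2 hpl-2, 10 of the fbxb genes rose and 27 fell, 5 of the fbxc genes rose and 10 fell, and 15 of the fbxa genes rose and 5 fell, against 12 and 3 of the BATH genes. Over all genes tested these shares were 20.2% higher and 21.6% lower in the hpl-2 mutant, and 28.7% higher and 29.4% lower in met-2 hpl-2. These counts stand side by side without a test between lists, and near-identical copies within such families may share reads.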

How the data were processed

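Total RNA of early embryos was sequenced in 14 samples of 4 genotypes, with ribosomal RNA removed and a strand-keeping kit, per the labels' protocols. The submitters' processing notes name Trimmomatic 0.39, a read trimmer, and the build ce10. No source used here gives the aligner, the counting program, its gene models or its use of strand, and overlapping, antisense and near-identical genes are therefore uncertain. The authors deposited 1 table of gene counts, whole numbers that were not normalised as far as the values show, and no column of samples was left unused. Symbols and positions came from a WBcel235 annotation matched by identifier (19870 of 20392 identifiers, 19182 with a symbol), and positions are those of WBcel235, not ce10. 16 members share exon bases with another annotated gene, 9 of them on the same strand.

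edgeR 4.0.16 in R 4.3.3 was run on the counts with its low-count filter, TMM scaling, a single fit of 4 groups and the quasi-likelihood test. Calls needed an adjusted p (Benjamini-Hochberg over 9498 genes, per comparison) under 0.05. The common dispersion had a square root of 5.34%. SE is the size of the log2 fold change over the square root of F. CPM are TMM-normalised, ± SD. A limit of 3 counts was 0.202 to 0.563 CPM, and such limits cover counting error only. The fit was tested on simulated data. Alternatives were DESeq2 1.42.0, other scalings and filters, fewer groups, a replicate block, thinned met-2 hpl-2 libraries, and fewer libraries.

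All 18 replicate pairs differed beyond sampling noise by chi-square, so each library counted once. Whether replicates were separate cultures is not in the labels, so the p-values reflect only how these samples spread, which may be technical. The 3 comparisons with wild type share its 3 libraries, and those with the hpl-2 mutant share its 4. Named members were the 4 called members with the largest and the 4 with the smallest fold change per comparison. The 6 highest per kb in wild type were also named. So were up to 6 at or under 3 summed counts in wild type, those with the highest mean CPM in any mutant. math-33, cul-3, mel-26 and up to 3 called genes per pathway list completed the rule. Others are said to be named after their values were seen. The members, lists and tests were chosen with earlier results of these data known.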

Additional observations from a re-analysis of the deposited data

Results flagged for a closer look

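For 2 members, the hpl-2 mutant had 1 library far from the other 3. bath-15 had 22.51 CPM in hpl-2 mutant replicate 1, below the 26.23 to 26.99 CPM of the other libraries, and all 4 lay above the wild-type values of 18.6 to 21.7 CPM. bath-39 had 10.19 CPM in hpl-2 mutant replicate 4, below the 11.83 and 11.96 CPM of replicates 2 and 1 and the slightly higher value of replicate 3. Both exceeded the 95% critical value of Dixon's test, which chance exceeds in about 1 in 20 groups, and 72 groups of 4 libraries were tested.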

How the results depend on the processing

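Counts of called members stayed within 1.5 times their value in all settings run except with hpl-2-FFAA replicates 3 and 4 alone. There 2 members were called against wild type in place of 0, and 8 against the hpl-2 mutant in place of 16. The shares of all genes called moved likewise, to 8.45% in place of 0.779% and to 15.3% in place of 35.2%. The cause was not tested. With 1 library left out, the counts against wild type were 15 to 17 for the hpl-2 mutant, 0 to 0 for hpl-2-FFAA and 18 to 21 for met-2 hpl-2. Against the hpl-2 mutant they were 13 to 18 for hpl-2-FFAA and 23 to 25 for met-2 hpl-2. With the replicate number as a block they were 16, 0, 20, 14 and 24 in the same order. The block ended the calls of bath-15 and bath-33 in the hpl-2 mutant against wild type. Against the hpl-2 mutant, it ended those of bath-24 and math-22 in hpl-2-FFAA and of math-20 and bath-34 in met-2 hpl-2. Same-numbered libraries had correlations of their deviations from -0.497 to 0.546, so over all genotypes the numbers showed no common pairing. Between the hpl-2 mutant and hpl-2-FFAA they were 0.504, 0.0385, 0.299 and 0.546 for replicates 1 to 4. Differently numbered libraries of these strains ran from -0.634 to 0.667. Whether these strains shared a batch or handling was not tested. No call changed direction in any setting, and 59 of the 80 calls held the threshold in all settings (14 of 18, 16 of 20, 8 of 16 and 21 of 26 in the comparisons with calls). Over all genes, hpl-2-FFAA had 74 calls against wild type, 24 when only the groups compared were fitted and 821 with replicates 3 and 4 alone. Depth limits the 37 untested members, since 3 counts are 0.469 to 0.563 CPM outside met-2 hpl-2, and groups of 3 or 4 libraries limit the rest.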
